A study of Mus musculus with 18 samples.

Results

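Described here are 10 mouse genes of transforming growth factor beta (TGF-beta) supply: the ligands Tgfb1, Tgfb2 and Tgfb3, the carriers of the latent ligand Nrros, Ltbp1, Ltbp3 and Lrrc32, the integrin genes Itgav and Itgb8, and the thrombospondin gene Thbs1. They were chosen by symbol, and each symbol was found at 1 Ensembl identifier among the 54532 genes of the count table. The retinas came from rd1 mice on the FVB background at postnatal day 30, a strain whose Pde6b mutation is known to kill rods and later cones. Subretinal injections gave an adeno-associated virus for green fluorescent protein (AAV8-GFP) alone, the GFP group, or AAV8-GFP together with AAV8-TGFB1, the TGFB1 group, so that every animal was an injected rd1 mouse carrying the GFP virus. Papain-dissociated cells were stained with antibodies and sorted into microglia, with 7 libraries for each treatment, and non-microglia, with 2 for each, and polyA RNA was sequenced after a modified Smart-Seq2 protocol. The labels do not give the promoter of the TGFB1 virus, whether it carries the mouse or the human sequence, or whether the libraries of a group came from separate animals. Counts of Tgfb1 are therefore reads assigned to the mouse gene, and p-values measure the spread between libraries, which may be partly technical.

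TGF-beta is secreted in a latent form, in which the propeptide folds around the mature ligand and keeps it from its receptors. The propeptide is tethered by a carrier, which is a latent TGF-beta binding protein (Ltbp1, Ltbp3) in the matrix, or a transmembrane protein of the leucine-rich repeat family on the cell surface (Nrros, also called LRRC33, in microglia and macrophages, and Lrrc32, also called GARP, in regulatory T cells, platelets and endothelium). Integrins of the alpha v group, among them alpha v beta 8, bind the propeptide and release or expose the ligand, and thrombospondin 1 is known to activate the latent ligand in vitro. Microglia depend on this supply for their resting identity in the mouse brain and retina.

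Sequences upstream of the start are shown for 3 genes picked for their place in the results: Tgfb1 and Nrros, which had 0 counts and 1 count in the GFP non-microglia libraries together, and Tgfb2, the ligand with the highest level there. RefSeq promoters (GRCm38.p6) were found for 7 of the 10 genes, and the 250 bases before the start are printed 5′ to 3′ on the gene's strand. Capitals mark matches to any of 6 motifs searched on both strands. The core promoter was searched for the TATA box, spelled TATAAA, and for the box bound by Sp1 proteins, known as the GC box and spelled GGGCGG. The element named CRE, bound by cyclic AMP responsive factors, was searched as TGACGTCA, and the palindromic box of basic helix-loop-helix factors, the E-box, as CACGTG. The myeloid factor PU.1 was searched by the letters GAGGAAGT, and the factors of the Fos and Jun family, together called AP-1, by the letters TGACTCA. No match overlaps another in the windows printed. The interval of Tgfb1 is chr7:25686752-25687001 (plus strand), that of Tgfb2 chr1:186705990-186706239 (minus strand) and that of Nrros chr16:32165595-32165844 (minus strand).
Tgfb1: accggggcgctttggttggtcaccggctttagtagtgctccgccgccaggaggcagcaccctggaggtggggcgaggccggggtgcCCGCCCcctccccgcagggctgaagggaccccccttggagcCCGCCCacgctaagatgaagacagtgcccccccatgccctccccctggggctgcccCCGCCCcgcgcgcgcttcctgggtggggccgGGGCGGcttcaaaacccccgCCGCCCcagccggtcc
Tgfb2: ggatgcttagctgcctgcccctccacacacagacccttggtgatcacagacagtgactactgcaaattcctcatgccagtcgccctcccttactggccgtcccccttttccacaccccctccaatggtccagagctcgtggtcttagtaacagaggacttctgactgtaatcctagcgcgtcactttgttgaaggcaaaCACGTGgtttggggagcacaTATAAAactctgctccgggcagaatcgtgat
Nrros: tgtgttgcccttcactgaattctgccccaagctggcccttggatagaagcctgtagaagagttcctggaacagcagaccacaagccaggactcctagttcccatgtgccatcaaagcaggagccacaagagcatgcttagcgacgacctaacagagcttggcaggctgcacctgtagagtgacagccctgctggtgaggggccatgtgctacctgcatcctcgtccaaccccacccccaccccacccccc
The Tgfb1 window held 5 GC boxes, a motif present in 32.7% of 32851 promoter windows of the same length, and its GC content of 75.2% was above that of 96.1% of them (median 52.4%). The Tgfb2 window (GC 53.6%) held a TATA box 31 bases before the start, as 12.4% of windows did anywhere in their length, and an E-box 51 bases before it (6.02%). None of the 6 motifs was found in the Nrros window (GC 58.4%). Of the remaining motifs, the CRE is present in 1.55% of windows, the PU.1 motif in 2.44% and the AP-1 motif in 4.46%, and among the other windows of the 10 genes a CRE was found for Ltbp1 and a PU.1 match for Itgav. These are matches of letters in the mouse genome and do not describe the promoter of the virus.

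Libraries held 1582451 to 3064027 counts, and 3 counts, the limit that a count of 0 allows, correspond to 0.881 to 2.12 counts per 1000000 (CPM, on the TMM scale of all 18 libraries, used for every level below). These limits and the counting intervals below cover counting error only, since the reads carry no molecular identifiers. The labelled fractions were as far apart in microglial markers as their names say: a 14-gene list (P2ry12, Tmem119, Cx3cr1 and others) summed to 47010 to 56040 CPM in microglia and to 59.5 to 70.4 CPM in non-microglia, where 4 of the 14 were at 0 in both GFP libraries and 6 in both TGFB1 libraries. In the other direction, 8 Mueller glia genes that are low in microglia (Rlbp1, Dkk3, Crym, Clu, Abca8a, Sox9, Aqp4 and Kcnj10, a set trimmed after the values were seen) summed in GFP replicates 2 and 5 and TGFB1 replicate 6 of microglia to 5.26%, 3.96% and 3.74% of their mean in GFP non-microglia, and in the other microglia libraries to 0.408% to 1.33%. On the whole 12-gene Mueller glia list, which also holds Apoe, Glul, Slc1a3 and Vim, the same 3 libraries did not stand apart (23.7%, 25.6% and 25.3%), and the 14 libraries ran from 20.6% to 31.6%, highest in TGFB1 replicates 7 and 2. Other retinal markers were high in 2 of the 3: bipolar markers were at 17.0% and 8.32%, amacrine markers at 24.8% and 17.8% and endothelial markers at 9.14% and 4.73% in GFP replicate 2 and TGFB1 replicate 6, the 2 highest of the 14 in each case. Cone markers were at 14.5% to 23.6% in all 14 microglia libraries. Retinal ganglion cell markers summed to 23.0 to 75.4 CPM in microglia and to 13.8 to 23.8 CPM in non-microglia. In these sorted bulk samples, fewer cells of a type and less RNA per cell cannot be told apart.

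**Figure D1:**
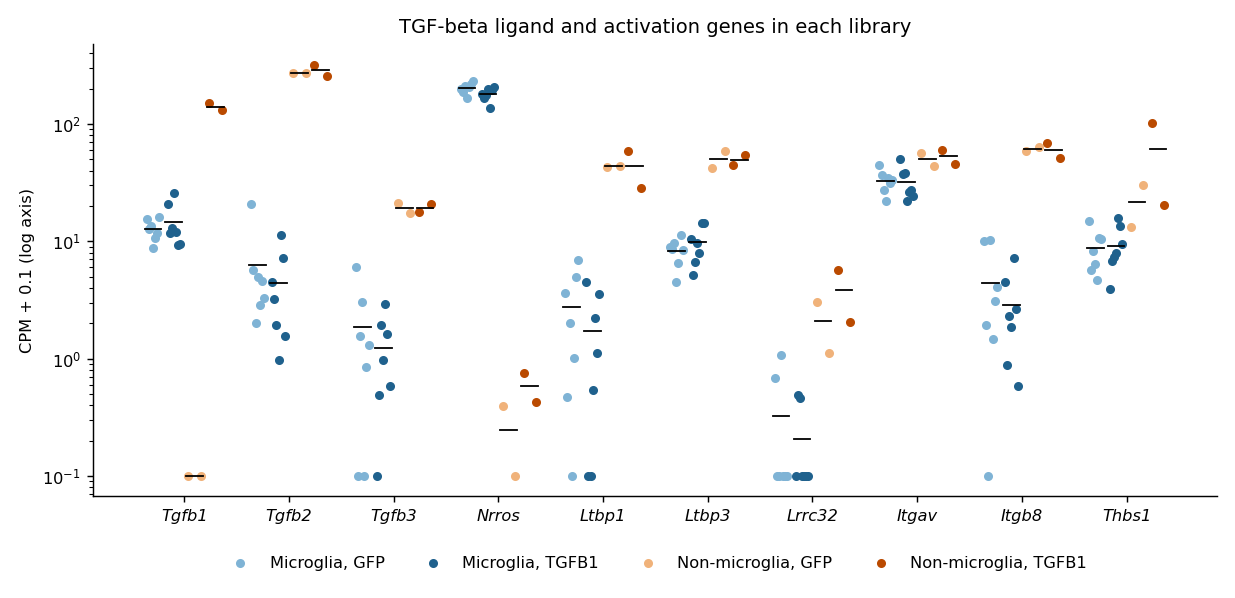
Level of each gene in each of the 18 libraries, in CPM with 0.1 added, on a log axis; points are libraries, coloured by fraction and treatment, and bars are group means. Nrros sits at 138 to 233 CPM in the 14 microglia libraries and at most 0.652 CPM in non-microglia, Tgfb2 is at 257 to 321 CPM in non-microglia, and Tgfb1 is at 0 in both GFP non-microglia libraries and at 131 and 151 CPM in both TGFB1 ones.

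Sorted microglia and the remaining retinal cells carried different parts of the TGF-beta supply. In GFP retinas, Tgfb1 and Nrros were higher in microglia, and Tgfb2, Tgfb3, Ltbp1, Ltbp3, Itgb8, Itgav and Thbs1 were higher in non-microglia. Of the 10 genes, 9 passed the filter on low counts in the fit of all 18 libraries, and all 9 were called (edgeR quasi-likelihood, Benjamini-Hochberg adjusted p under 0.05): 2 higher and 7 lower in microglia. Over all 15321 genes tested 64.2% were called, 29.9% higher and 34.2% lower in microglia. In TGFB1 retinas 1 was higher in microglia (Nrros) and 8 were lower, Tgfb1 now among them, beside 65.2% of all genes called (30.8% higher and 34.4% lower). The median log2 difference, microglia minus non-microglia, over the 9 genes was -2.59 in GFP and -3.27 in TGFB1 retinas, beside -0.06 and -0.04 over all genes tested. Lrrc32 was too low to be tested. Among the 9 genes, Tgfb3, Ltbp1 and Itgb8 did not pass the filter in the microglia libraries alone. Nrros did not pass it in the non-microglia libraries alone. These genes entered the fit through the fraction where they are high, which made a call between fractions likely beforehand. In TGFB1 retinas the median is the value of Tgfb1 itself, which in GFP retinas was on the higher side in microglia. Neither the count of 9 nor the medians are therefore read as a result about the genes as a set.

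Tgfb1 (ENSMUSG00000002603, GRCm38 chr7:25687002-25705077) encodes TGF-beta 1. Its level in GFP microglia ran from 8.71 CPM through a median of 12.6 CPM to 15.9 CPM (12.6 ± 2.56, SD, n = 7). GFP non-microglia had 0 counts in both libraries, which allows up to 0.881 and 1.01 CPM. Every GFP microglia library was thus above both GFP non-microglia libraries, and the mean was at least 13.3-fold higher, taking 3 counts per library as the floor (edgeR adjusted p = 5.09e-08). In TGFB1 retinas the order was turned around: non-microglia had 462 and 402 counts, or 151 and 131 CPM, and microglia ran from 9.18 through 12.0002 to 25.7 CPM (14.5 ± 6.27, SD, n = 7). No microglia library reached the lower of the non-microglia values, and the log2 difference was -3.27 (SE 0.23, edgeR adjusted p = 1.19e-11).

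Tgfb2 (ENSMUSG00000039239, chr1:186622792-186705989) encodes TGF-beta 2. It was at 269 and 270.1 CPM in the GFP and 321 and 257 CPM in the TGFB1 non-microglia libraries. In microglia it ran from 1.93 through 4.51 to 20.6 CPM in GFP and from 0.870 through 3.13 to 11.3 CPM in TGFB1 retinas. The fractions did not overlap, with log2 differences of -5.54 (SE 0.43, edgeR adjusted p = 1.27e-08) in GFP and -6.22 (SE 0.45, edgeR adjusted p = 6.21e-09) in TGFB1 retinas. The highest microglia values, 20.6 and 11.3 CPM, came from GFP replicate 2 and TGFB1 replicate 6. Both libraries had the highest bipolar, amacrine and endothelial marker sums of the microglia libraries. They are also among the 3 highest in the trimmed Mueller glia set. Cone, rod and astrocyte marker sums were highest in other microglia libraries. The part of other cells in the Tgfb2 values of microglia was not tested.

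Tgfb3 (ENSMUSG00000021253, chr12:86056745-86079041) encodes TGF-beta 3. It was at 21.1 and 17.2 CPM in GFP and 17.6 and 20.8 CPM in TGFB1 non-microglia. In microglia 2 GFP libraries and 1 TGFB1 library had no count. The highest value of each treatment was 5.89 CPM in GFP replicate 2 and 2.82 CPM in TGFB1 replicate 6. GFP replicate 5, at 2.90 CPM, was above the latter. The log2 differences were -3.58 (SE 0.58, edgeR adjusted p = 1.11e-05) in GFP and -4.09 (SE 0.61, edgeR adjusted p = 3.75e-06) in TGFB1 retinas, and without GFP replicate 2 of microglia the first was -4.20. Of its exon bases, 12.42% lie opposite Gm37804 and Gm48008, and since the strand setting of the counting is not given in the sources used here, reads there could belong to either strand.

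Per kilobase of exon, which allows levels of different genes to be compared, Tgfb1 made up 66.6% ± 16.8 of the summed level of the 3 ligands in GFP microglia and 72.9% ± 17.3 in TGFB1 microglia (SD, n = 7 each). In GFP non-microglia Tgfb2 made up 89.2% ± 1.44, Tgfb3 10.8% ± 1.44 and Tgfb1 0% (SD, n = 2). In TGFB1 non-microglia the shares were 59.6% ± 2.26 for Tgfb2, 33.5% ± 0.636 for Tgfb1 and 6.90% ± 1.62 for Tgfb3 (SD, n = 2). The level of Tgfb2 itself did not pass the test between these treatments (log2 fold change 0.11), and Tgfb1 reads were added to the sum. With the longest transcript in place of the union of exons, the mean shares of Tgfb1 and Tgfb2 in TGFB1 non-microglia were 46.9% and 48.2%, and in replicate 2 that of Tgfb1 was the higher, 47.4% against 46.9%. Since the length of the viral transcript is not given, the order of these ligands is not resolved.

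**Figure D2:**
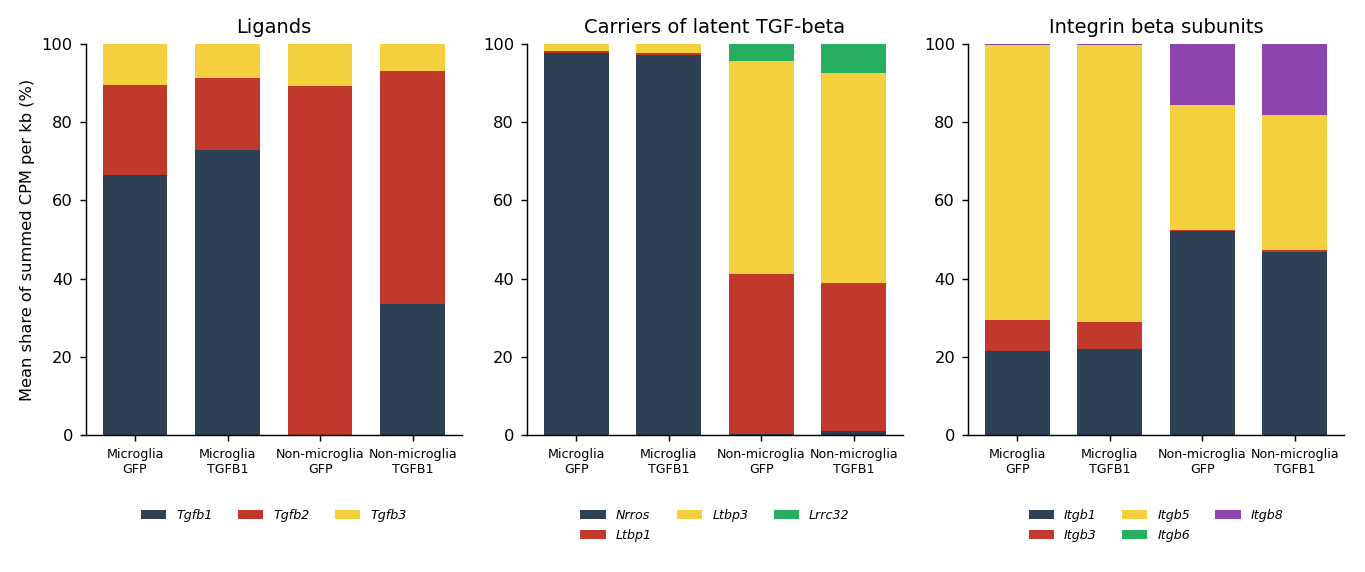
Mean share, in percent of the summed CPM per kb of exon, of each ligand (left), each carrier of the latent ligand (middle) and each integrin beta subunit that pairs with alpha v (right), for the 4 groups (7, 7, 2 and 2 libraries). Nrros takes 97.6% and 97.2% of the carrier level in microglia, Ltbp1 and Ltbp3 together nearly all of it in non-microglia, and Itgb8 is visible only in non-microglia, at 15.6% and 18.2%.

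Nrros (ENSMUSG00000052384, chr16:32142785-32165594) encodes the transmembrane carrier of latent TGF-beta 1 on microglia. It ran from 167 through 208 to 233 CPM in GFP microglia (203 ± 21.6, SD, n = 7) and from 138 through 181 to 208 CPM in TGFB1 microglia (180.2 ± 23.7, SD, n = 7). Non-microglia had 1 and 0 counts in the GFP and 2 and 1 counts in the TGFB1 libraries. The fractions were far apart in both treatments, with 3237 counts against 1 in GFP retinas, a ratio of levels of 1298 (95% exact interval of counting 233 to 51303, edgeR adjusted p = 5.99e-18), and 2698 against 3 in TGFB1 retinas, a ratio of 372 (127 to 1805, edgeR adjusted p = 1.41e-17). Its exons share no base with another gene. Per kilobase it was the highest of the 10 genes in both microglia groups, at 48.6 and 43.1 CPM per kb, and it is the only one there whose library values did not overlap those of the next gene in the order.

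Ltbp1 (ENSMUSG00000001870, chr17:75005568-75392512) encodes a matrix protein that binds the latent complex covalently. It was at 42.9 and 44.1 CPM in GFP and 58.7 and 28.3 CPM in TGFB1 non-microglia, and at 0 to 6.77 CPM in the 14 microglia libraries. The log2 differences were -3.99 (SE 0.61, edgeR adjusted p = 1.77e-05) and -4.86 (SE 0.67, edgeR adjusted p = 5.51e-06) in GFP and TGFB1 retinas, the second -4.21 without TGFB1 replicate 1 of non-microglia. The fractions did not overlap in either treatment.

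Ltbp3 (ENSMUSG00000024940, chr19:5740904-5758532), whose product is likewise a matrix carrier, was at 41.7 and 58.3 CPM in GFP and 44.4 and 54.6 CPM in TGFB1 non-microglia. Microglia ran from 4.36 through 8.50 to 11.3 CPM in GFP and from 5.08 through 9.57 to 14.3 CPM in TGFB1 retinas, with a count in every library. The log2 differences of -2.59 (SE 0.26, edgeR adjusted p = 5.22e-09) and -2.36 (SE 0.26, edgeR adjusted p = 2.45e-08) were smaller in size than those of Ltbp1 (a comparison of values, not a test). In single microglia libraries Ltbp3 reached 8.72% to 28.6% of its mean in GFP non-microglia. The lowest of these percentages came from GFP replicate 5 and the highest, 28.6% and 28.4%, from TGFB1 replicates 7 and 8. In GFP replicate 5 the 8 Mueller glia genes were at 3.96%, the 12-gene list at 25.6% and cone markers at 17.1%. Over the 14 microglia libraries the 12-gene list ran from 20.6% to 31.6% and cone markers from 14.5% to 23.6%. The part of other cells in the Ltbp3 counts of microglia was not tested.

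Lrrc32 (ENSMUSG00000090958, chr7:98489283-98502181), the carrier known from regulatory T cells and endothelium, was close to the limit of detection. It had 10 and 3 counts in GFP and 17 and 6 counts in TGFB1 non-microglia, and 10 of the 14 microglia libraries had none. The ratio of non-microglia to microglia was 10.8 (13 against 3 counts, 95% exact interval 2.97 to 59.1) in GFP and 27.8 (23 against 2 counts, 6.87 to 243) in TGFB1 retinas. Endothelial markers summed to 1336 and 1679 CPM in GFP non-microglia and to 17.5 to 138 CPM in GFP microglia, and their part in the Lrrc32 counts was not tested.

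Itgav (ENSMUSG00000027087, chr2:83724397-83806916) encodes integrin alpha v and was the most evenly spread of the 10 genes. It was at 57.0 and 43.4 CPM in GFP and 60.3 and 45.2 CPM in TGFB1 non-microglia. Microglia ran from 21.8 through 33.5 to 44.2 CPM in GFP and from 21.7 through 27.04 to 50.2 CPM in TGFB1 retinas, so that the fractions overlapped in both treatments. The log2 differences of -0.62 (SE 0.24, edgeR adjusted p = 0.0246) and -0.71 (SE 0.24, edgeR adjusted p = 0.0111) passed the test, but each call ended without replicate 1 of the non-microglia of that treatment, at -0.37 (edgeR adjusted p = 0.339) and -0.47 (edgeR adjusted p = 0.225).

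Itgb8 (ENSMUSG00000025321, chr12:119158022-119238802) encodes the beta 8 subunit, which pairs with alpha v alone. Its level was 58.2 and 63.0 CPM in GFP and 69.1 and 51.0 CPM in TGFB1 non-microglia. In microglia it ran from 0 through 3.01 to 10.2 CPM in GFP and from 0.489 through 2.19 to 7.06 CPM in TGFB1 retinas. The log2 differences were -3.86 (SE 0.51, edgeR adjusted p = 3.52e-06) and -4.57 (SE 0.55, edgeR adjusted p = 1.09e-06), with no overlap. The 3 highest microglia libraries were GFP replicates 5 and 2 and TGFB1 replicate 6, at 16.8%, 16.5% and 11.7% of the GFP non-microglia mean. They are the 3 highest in the trimmed set of 8 Mueller glia genes, though not on the 12-gene list.

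Among the beta subunits that can pair with alpha v, per kilobase, Itgb8 made up 0.236% ± 0.239 in GFP microglia and 15.6% ± 2.51 in GFP non-microglia (SD, n = 7 and n = 2). Itgb5, the beta 5 subunit, made up 70.3% ± 4.27 in GFP microglia and 32.04% ± 4.86 in GFP non-microglia. The largest share in GFP non-microglia was that of Itgb1, the beta 1 subunit, at 52.1% ± 6.90. Itgb3, the beta 3 subunit, made up 7.74% ± 1.19 in GFP microglia and 0.326% ± 0.461 in GFP non-microglia. The microglial alpha v transcript was thus accompanied mainly by Itgb5, Itgb1 (21.6% ± 4.16) and Itgb3 transcripts, while Itgb6 was at most 0.128% in any library.

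Thbs1 (ENSMUSG00000040152, chr2:118111876-118127133) encodes thrombospondin 1, a secreted glycoprotein. It was at 13.2 and 30.0 CPM in GFP and 101 and 20.5 CPM in TGFB1 non-microglia, with the TGFB1 libraries far apart from each other. In microglia it ran from 4.599 through 8.19 to 14.7 CPM in GFP and from 3.82 through 7.83 to 15.5 CPM in TGFB1 retinas. The highest microglia library of the GFP group was above the lower GFP non-microglia library. The log2 differences were -1.33 (SE 0.50, edgeR adjusted p = 0.0275) in GFP and -2.78 (SE 0.45, edgeR adjusted p = 2.97e-05) in TGFB1 retinas. The first was not called without GFP replicate 2 of non-microglia (-0.61, edgeR adjusted p = 0.467) or with limma voom (-1.29, adjusted p = 0.0541), and the second was -1.18 (edgeR adjusted p = 0.0468) without TGFB1 replicate 1.

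Ordered per kilobase, GFP microglia held Nrros at 48.6 CPM per kb, then Itgav at 3.05, Tgfb1 at 2.50, Thbs1 at 1.42, Tgfb2 at 1.07 and Ltbp3 at 0.904 CPM per kb. From Itgav down to Lrrc32, each gene's library values overlapped those of the next, so their order is not resolved, and with the longest transcript as the length Tgfb1 (4.90) came before Itgav (4.64). GFP non-microglia held Tgfb2 at 46.6 CPM per kb, apart from all others. It was followed by Tgfb3, Ltbp3, Itgb8, Itgav, Ltbp1 and Thbs1 between 5.66 and 3.56 CPM per kb, which overlapped from neighbour to neighbour, and then by Lrrc32 at 0.421. In TGFB1 non-microglia Tgfb1, at 27.9 CPM per kb, stood between Tgfb2 at 49.9 and Thbs1 at 10.04 without overlap with either. With the longest transcript Tgfb1 was at 58.6 and 50.8 and Tgfb2 at 62.7 and 50.2 CPM per kb in replicates 1 and 2, so that they overlapped and their order turned in replicate 2.

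**Figure D3:**
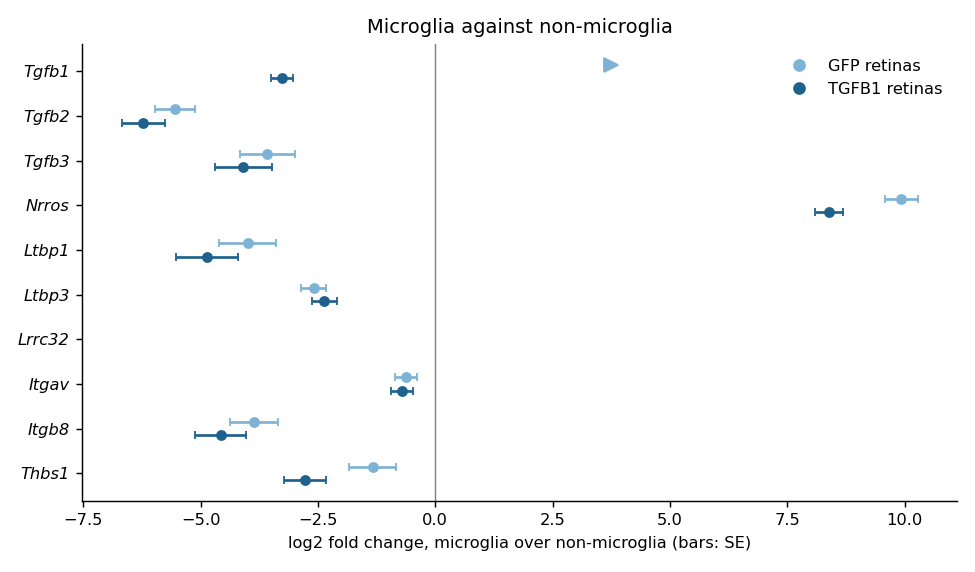
Log2 fold change of each gene, microglia over non-microglia, in GFP (light) and TGFB1 retinas (dark), with bars for the standard error; the triangle for Tgfb1 marks the lower bound of 13.3-fold in GFP retinas, and Lrrc32 was not tested. Values right of 0 are higher in microglia: Nrros in both treatments, whose fitted value depends on 1 to 3 counts in non-microglia, and Tgfb1 in GFP retinas only, against -3.27 in TGFB1 retinas.

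Whether the TGFB1 virus was accompanied by other levels of these genes in microglia was asked by comparing 7 TGFB1 with 7 GFP libraries. Of 6 genes that passed the filter, 0 were called (edgeR), and 1 had an unadjusted p under 0.05, while 0.31% of all 10970 genes tested were called (0.237% higher and 0.0729% lower). DESeq2 and limma voom called 0 as well. Tgfb1 itself had a log2 fold change of 0.20 (SE 0.22, edgeR adjusted p = 0.931), and 3 of 7 TGFB1 libraries were above the GFP mean. The highest were TGFB1 replicate 5, at 25.7 CPM, and replicate 2, at 20.7 CPM, and without replicate 5 the log2 fold change was -0.01. In these 2 libraries perivascular macrophage and monocyte markers summed to 60.9 and 39.8 CPM, against 12.04 to 29.9 CPM in GFP microglia and 49.2 CPM in TGFB1 replicate 3, where Tgfb1 was at 11.7 CPM. The 8 Mueller glia genes were at 0.512% and 0.484%, and the 12-gene list at 21.002% and 31.01%, of their GFP non-microglia mean. The part of these cells in the Tgfb1 values was not tested.

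Nrros had the smallest p of the 6 genes, with a log2 fold change of -0.18 (SE 0.08, edgeR unadjusted p = 0.0404, adjusted p = 0.707), and its groups overlapped. The remaining log2 fold changes were -0.58 for Tgfb2 (SE 0.62), 0.21 for Ltbp3 (SE 0.26), -0.03 for Itgav (SE 0.17) and 0.06 for Thbs1 (SE 0.29), with edgeR adjusted p from 0.926 to 0.994. Without GFP replicate 2 the value of Tgfb2 was 0.05, and the sign of Itgav and Thbs1 depended on single libraries. Tgfb3, Ltbp1, Itgb8 and Lrrc32 were below the filter in microglia, with 24 and 16, 43 and 21, 64 and 36, and 3 and 2 counts in all GFP and all TGFB1 libraries, respectively.

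In non-microglia 1 of 8 genes tested was called between treatments, Tgfb1, beside 0.39% of 13598 genes (0.338% higher and 0.0515% lower). Tgfb1 had 0 counts in both GFP and 462 and 402 counts in both TGFB1 libraries, at least 149-fold higher against a floor of 3 counts per library (edgeR adjusted p = 3.71e-15). The virus is named for this gene, and the part of viral transcripts in these counts was not tested. The test of the difference between the TGFB1 effects in microglia and in non-microglia called 1 of 9 genes, again Tgfb1 (edgeR adjusted p = 1.55e-08), beside 0.0131% of 15321 genes. The difference for Thbs1 was -1.45 (SE 0.72, edgeR unadjusted p = 0.0591, adjusted p = 0.99995). The exons of Tgfb1 share no base with another gene. Of 7 neighbouring genes on chromosome 7 that were tested (Bckdha, Exosc5, Tmem91, B9d2, Ccdc97, Hnrnpul1 and Axl), 0 were called in non-microglia, with log2 fold changes from -0.20 to 0.40 (edgeR adjusted p from 0.871 to 0.996).

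Marker sums of other cells also differed between these 2 pairs of libraries: bipolar markers were at 1452 and 1364 CPM in GFP and 2339 and 2039 CPM in TGFB1 libraries, cone markers at 1543 and 1823 against 751 and 1100 CPM, and erythroid markers at 778 and 698 against 307 and 278 CPM, and their part in the results was not tested.

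The other 2 ligands in non-microglia had log2 fold changes of 0.11 for Tgfb2 (SE 0.10) and 0.01 for Tgfb3 (SE 0.26), and the carriers 0.01 for Ltbp1 (SE 0.29) and -0.00294 for Ltbp3 (SE 0.19). The integrin genes were at -0.00392 for Itgb8 (SE 0.17) and 0.07 for Itgav (SE 0.18). All 6 had an edgeR adjusted p from 0.919 to 0.998. With 2 libraries a group, the standard errors limit what could be detected to changes well above these values. Thbs1 had a log2 fold change of 1.52 (SE 1.22, edgeR adjusted p = 0.923), which came from 1 library: TGFB1 replicate 1 had 311 counts, against 63 in replicate 2 and 45 and 89 in the GFP libraries, and without it the value was -0.06. In TGFB1 replicates 1 and 2 of non-microglia, pericyte markers summed to 547 and 683 CPM, pigment epithelium markers to 139 and 77.3 CPM, endothelial markers to 1240 and 1447 CPM and platelet markers to 5.87 and 10.7 CPM. Their part in the Thbs1 counts was not tested.

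**Figure D4:**
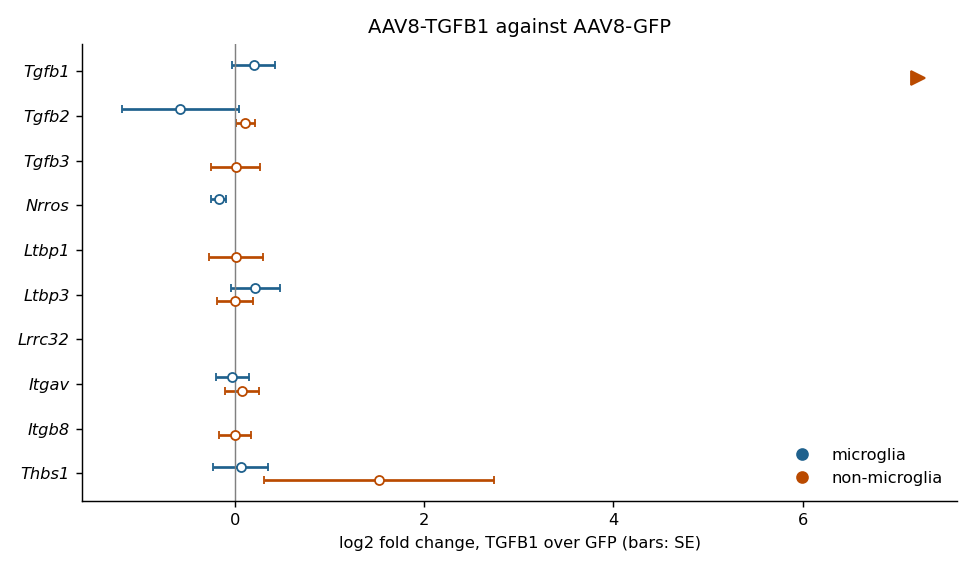
Log2 fold change of each gene, TGFB1 over GFP, in microglia (blue) and non-microglia (orange), with bars for the standard error; genes below the filter in a fraction have no point, and open circles did not pass the test. The orange triangle is the lower bound of 149-fold for Tgfb1 in non-microglia, against 0.20 in microglia, and the wide bar is Thbs1 in non-microglia at 1.52.

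Of 32 other genes of latent TGF-beta storage and activation (further Ltbp and fibrillin genes, integrin subunits, proteases and small proteoglycans), 14 passed the filter in microglia and 1 was called between treatments. Over all 10970 genes tested there, 0.31% were called. Tgm2, the transglutaminase known to cross-link latent complexes into the matrix, rose from 115 ± 14.8 to 158 ± 23.8 CPM (SD, n = 7 libraries), which is 0.46 on the log2 scale (SE 0.09, edgeR adjusted p = 0.0175). Its libraries ran from 93.2 to 138 CPM in GFP and from 126 to 184 CPM in TGFB1 retinas, with some overlap. The call ended without GFP replicate 7 (adjusted p = 0.0504) or TGFB1 replicates 3 (0.0520), 5 (0.0535) or 8 (0.0687), by edgeR. It also ended in the fit of all 18 libraries (0.0556) and with the 8 Mueller glia genes as a covariate (0.0950), and the log2 fold change stayed between 0.41 and 0.51 in all of these fits. Of the 14 genes 5 had an unadjusted p under 0.05 (edgeR) and 11 had a log2 fold change above 0. The median over the 14 genes was 0.18, beside 0.00300 over all genes. In non-microglia 0 of 22 were called (edgeR, 3 at an unadjusted p under 0.05), with a median of -0.11 beside -0.000619 over all genes. The difference between the effects was called for 0 of 25 (edgeR, 3 at an unadjusted p under 0.05). Over all genes tested, 0.39% were called in non-microglia and 0.0131% in the difference. The shares of all genes at an unadjusted p under 0.05, or with a log2 fold change above 0, are not given here. No shift of the list is therefore read from these counts, and the medians were not tested.

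Between the fractions of GFP retinas, 25 of the 32 were tested, with 11 higher and 12 lower in microglia and a median of -1.73. Over all genes tested 64.2% were called, 29.9% higher and 34.2% lower, with a median of -0.06. Here too, genes could pass the filter through 1 fraction alone. Of the 5 with the most counts beside Tgm2, 4 were higher in microglia. A ranking by counts can favour genes high in microglia, the fraction with most of the libraries. The 4 of 5 is therefore not read as a result about the list. Itgb5 was at 446 ± 42.9 CPM against 40.1 ± 1.87 in non-microglia (log2 difference 3.47, SE 0.14, edgeR adjusted p = 1.1e-16). Nrp1, a receptor for semaphorins and growth factors, differed by 1.90 (287 ± 19.8 against 77.0 ± 7.88 CPM), Emilin1, a matrix glycoprotein gene, by 3.28 and Itgb1, the beta 1 subunit, by 1.06 (largest edgeR adjusted p = 0.0175). Htra1, a secreted serine protease gene, was lower in microglia (-5.64, SE 0.50, edgeR adjusted p = 8.42e-08). Tgm2 was higher in microglia by 0.96 in GFP and 1.56 in TGFB1 retinas. In TGFB1 retinas 11 of 25 were higher and 14 lower in microglia, with a median of -1.01. Over all genes tested 65.2% were called, 30.8% higher and 34.4% lower, with a median of -0.04.

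**Figure D5:**
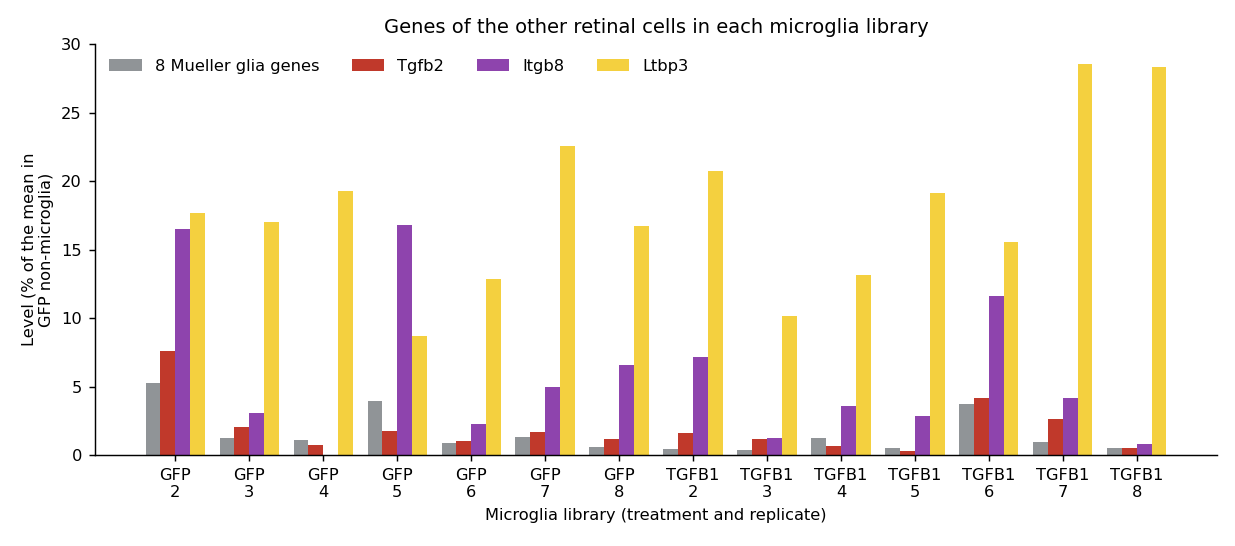
Level of 8 Mueller glia genes (summed), Tgfb2, Itgb8 and Ltbp3 in each of the 14 microglia libraries, as a percent of the mean of the 2 GFP non-microglia libraries; each bar is 1 library. The 8 Mueller glia genes, a set trimmed after the values were seen, are highest in GFP replicates 2 and 5 and TGFB1 replicate 6 (5.26%, 3.96% and 3.74%), where Itgb8 is highest too, while Ltbp3 runs from 8.72% to 28.6% in another order.

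Genes that are low in microglia differed in whether they were high in the 3 libraries with most RNA of the 8 Mueller glia genes. In GFP replicates 2 and 5 and TGFB1 replicate 6 of microglia, Tgfb2 was at 7.64%, 1.79% and 4.19% of its GFP non-microglia mean, against 0.322% to 2.65% in the other libraries, so that GFP replicate 5 was within the range of the others. Tgfb3 was at 30.7%, 15.2% and 14.7% in these 3 libraries, and at 0% to 9.52% in the others. Ltbp1 was at 8.12%, 0% and 4.87% in them and highest, at 15.6%, in GFP replicate 8, where the 8 genes were at 0.573%. The 3 libraries were left out in an alternative chosen after the data were seen. The log2 difference between the fractions of GFP retinas was then -6.16 for Tgfb2, -4.75 for Tgfb3 and -4.79 for Itgb8. Each was still called (largest edgeR adjusted p = 3.97e-09). Tgfb3 and Itgb8 were highest in the libraries left out, which by itself makes their differences larger. Ltbp1 (-3.81) and Ltbp3 (-2.48) were also still called, slightly smaller in size than with all libraries (-3.99 and -2.59).

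The genes whose pattern over the 18 libraries was most like that of Nrros, among 8955 genes of at least 10 CPM on average, were C1qa, Tbxas1 and Ccl6 (Pearson r of log2(CPM + 1) 0.999 for each). Those most like Tgfb2 were Gprc5b (0.993), Gnao1 (0.985) and Kdr (0.984). The libraries fall into 2 fractions that differ in most genes, so these values mainly describe that split, and no test was made. For Tgfb1, which was high in both TGFB1 non-microglia libraries, at 0 in both GFP ones and between these in microglia, the closest genes were Slc4a1ap (0.789), Qpct (0.701) and Mrps23 (0.633).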

How the data were processed

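RNA-seq libraries of sorted cells were analysed from the whole-number read counts per gene that the authors deposited, 1 column for each of 18 libraries. STAR, featureCounts, DESeq2 and GRCm38.p6 are named in the submitters' processing notes, without roles. The sources used here do not give tool versions, the annotation release, the strand setting or filters. Of 54532 identifiers, 54495 matched GENCODE M21 and 37 did not. Groups came from the sample titles.

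From these counts, edgeR 4.0.16 (R 4.3.3) was run with TMM scaling, filterByExpr and robust quasi-likelihood tests. TGFB1 was compared with GFP within each fraction's own libraries. The fractions, and the difference between the TGFB1 effects, were tested in 1 fit of all 18 libraries, which share 1 estimate of the spread. Calls used a Benjamini-Hochberg adjusted p under 0.05 over all genes tested. The standard error is the log2 fold change divided by the square root of the test statistic, so it describes that test only. CPM per kb used the union of exons. The scripts were tested on simulated data. Alternatives were limma 3.58.1 (voom), DESeq2 1.42.0, RLE scaling, no filter, no robust dispersion, left-out libraries, a replicate block, marker covariates, and the longest transcript as length.

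All 10 genes are named in every comparison. Of the other pathway genes, up to 6 are named, those called between treatments and then those with the most counts. The genes and lists were chosen with earlier results of these data known.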

Additional observations from a re-analysis of the deposited data

Results flagged for a closer look

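Tgfb2 in GFP replicate 2 of microglia stood far from the other 6 GFP microglia libraries, at 20.6 CPM (35 counts), with a gap to the nearest library of 0.807 of the group's whole range, above Dixon's critical value of 0.568 for 7 samples. It was the only 1 of 20 groups checked to stand out, and chance marks about 1 in 20. Of the microglia libraries the same one had the highest sums, as a percent of the GFP non-microglia mean, of bipolar (17.0%), amacrine (24.8%), endothelial (9.14%), pigment epithelium (23.7%) and erythroid markers (2.87%) and of the trimmed set of 8 Mueller glia genes (5.26%), but not of the 12-gene Mueller glia list (23.7%). Their part in the Tgfb2 value was not tested.

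The TGFB1 effect on Tgfb1 differed between microglia and non-microglia (edgeR interaction test, adjusted p = 1.55e-08). In microglia 3 of 7 TGFB1 libraries were above the GFP mean, and in non-microglia both TGFB1 libraries, with 462 and 402 counts, were above both GFP libraries, which had 0 counts. The part of viral transcripts in these counts was not tested.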

How the results depend on the processing

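Calls of the 10 genes kept their direction in every alternative run. In microglia 0 were called between treatments under each. Without the rRNA repeat genes and Tgfb1, 0 were called between treatments in non-microglia and 0 in the difference, since Tgfb1 was left out. With a replicate block 2 were called in non-microglia, Tgfb1 and Thbs1 (1.29, edgeR adjusted p = 2.48e-06), and the block ended the call of Thbs1 between the fractions of GFP retinas (-1.47, edgeR adjusted p = 0.0817). Same-numbered microglia libraries correlated in their deviations from -0.13 to 0.32, 2 of 7 best with their own number, and non-microglia at -0.09, so the numbers were not taken as pairs.

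Values near 0 that changed sign were not called: in non-microglia, Ltbp3 0.00457 and Itgb8 0.00397 without a filter, Ltbp1 -0.0867 and Ltbp3 0.0201 with voom, Ltbp1 -0.000454 in the fit of all 18 libraries, and Ltbp1 -0.0460 and Ltbp3 0.000407 with the block; in microglia, Thbs1 -0.0167 with the Mueller glia list (12 genes) and Tgfb2 0.188 with the 8 genes as a covariate, and Itgav 0.0107 without the 3 libraries high in those genes; and in the difference, Tgfb3 0.206 with voom and 0.399 without those libraries. Their cause was not tested.

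Leaving out 1 library at a time gave log2 fold changes between treatments in microglia of -0.00542 to 0.278 for Tgfb1, -0.971 to 0.05001 for Tgfb2, -0.166 to 0.0558 for Itgav and -0.11 to 0.22 for Thbs1. In non-microglia they were -0.0658 to 0.260 for Tgfb2, -0.13 to 0.16 for Tgfb3, -0.62 to 0.44 for Ltbp1, -0.24 to 0.26 for Ltbp3, -0.24 to 0.20 for Itgb8, -0.15 to 0.28 for Itgav and -0.0580 to 2.26 for Thbs1. The difference was -0.78 to 0.11 for Tgfb3, -0.0250 to 0.436 for Ltbp3, -0.31 to 0.13 for Itgav and -2.18 to 0.12 for Thbs1.

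Over all genes, calls between treatments in microglia numbered 34, and 64 without a filter, 15 in the fit of all 18 libraries, 60 with the block, 56 with a covariate for libraries with Xist counts, 17 with the 8 genes and 16 to 34 without 1 library. In non-microglia they numbered 53, and 102 without a filter, 33 by DESeq2, 4 in the fit of all 18 libraries, 109 with the block and 28 to 110 without 1 library. The difference gave 2, and 12 without a filter, 1 without robust dispersion, 4 by DESeq2, 0 without Tgfb1 and 1 with the block. RLE scaling moved the median of all genes between fractions by -0.116 in GFP and -0.124 in TGFB1 retinas, and no direction of the 10 genes turned. With 2 non-microglia libraries a group and 3 counts at 0.881 to 2.12 CPM, low levels such as that of Lrrc32 are not resolved.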
